A study of Oryza sativa with 44 samples.

Results

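The transcriptomes of 2 rice knockout lines, osythdf1b and osythdf1c, were set directly against each other, with no wild type in the contrast. Each line had 3 libraries, chosen by the line named in their labels, so 6 of the 44 libraries of the series carry the comparison. Both lines were labelled NIP, and per the series text both belong to the CRISPR knockout lines. Plants were 2 weeks old seedlings raised in nutrient solution with no further treatment named, and the organ sampled is not named. Nothing in the labels gives the edited site, the allele, the number of edited lines behind a name or whether plants were pooled, so a difference between the lines is a difference between these plant stocks. Replicates are described as biological, with no word on separate growth, so p-values reflect how far these libraries vary, which may be technical in part. The series as a whole holds 15 groups: wild types NIP and DJ, 10 knockout lines, 2 RNAi knockdown lines (RNAi-OsYTHDF2C and RNAi-OsYTHDC1A) and 1 overexpression line (OE-OsYTHDF1A), all of genes of the YTH family. DJ, osythdf1a, osythdf2a and osythdf3a were labelled DJ and the other 11 groups NIP.

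YTH proteins carry a domain that binds N6-methyladenosine, a common methyl mark inside messenger RNA, and are therefore called readers of that mark. DF-type readers act mostly in the cytoplasm, where in plants and animals they are known to affect how stable and how well translated a marked transcript is, whereas DC-type readers include nuclear proteins that act on splicing and on the choice of poly(A) site. In Arabidopsis, readers of the DF type are known for roles in the growth and emergence of leaves and in trichome branching. The names of the mutants share the number 1 and differ in the letter. The labels do not say what either stands for. The files give locus IDs without gene names, so the transcripts of the 2 targeted genes, other YTH genes and tissue markers were not analysed here, and the knockouts were not checked on their own transcripts.

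Library totals were 19559734, 19700616 and 20752424 counts in osythdf1b and 19573466, 15599771 and 17685354 counts in osythdf1c. Every one of the 44 libraries was most like a library of its own group. Among genes detected in DJ and nearly absent from NIP, more were detected in osythdf1b than in osythdf1c, though both lines are labelled NIP. Of these 504 genes, 265 were detected in osythdf1b and 57 in osythdf1c. Of 236 genes with the opposite pattern, 114 were detected in osythdf1b and 118 in osythdf1c. Both classes were counted in these lines only. For genes at least 2-fold higher in osythdf1b, given below, DJ and osythdf2a lay near osythdf1b, as did osythdf3c, osythdf4c and RNAi-OsYTHDC1A, labelled NIP. For the same genes osythdf1a and osythdf3a, labelled DJ, lay nearer osythdf1c, so nearness to osythdf1b did not follow the labelled background. All 3 libraries of osythdf1b are concerned, so no result can be given without them, and the knockout and the plant stock cannot be told apart.

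Most of the measured transcriptome differed between the lines. Of 27584 genes tested, 20616 (74.7%) were called, which means a Benjamini-Hochberg adjusted p under 0.05 in edgeR's quasi-likelihood test fitted to the counts of all 33 NIP libraries. Calls split almost evenly, with 10267 genes (37.2%) higher in osythdf1b and 10349 (37.5%) higher in osythdf1c. The size of the differences was uneven. At a minimum of 2-fold, 4884 genes (17.7%) were higher in osythdf1b and 3920 (14.2%) were higher in osythdf1c, 8804 (31.9%) in all. At 4-fold the numbers were 2819 and 920, at 8-fold 1857 and 358, and at 16-fold 1236 and 161. The upper 5% of log2 fold changes (osythdf1b over osythdf1c) lay above 3.75, and the lower 5% lay below -1.69. RNA came from whole samples, in which fewer cells of a type and less RNA per cell cannot be told apart.

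The balance of directions depended on the scaling. With library totals in place of TMM factors, which correct for differences in RNA composition, all log2 differences moved by about 0.2 towards osythdf1b, and the median over genes went from -0.01 to 0.2. The share of calls that were higher in osythdf1b then rose from 49.8% to 61.2%, and among 2-fold calls from 55.5% to 69%. Of the 20616 calls, 18310 were also called in the same direction under library totals and 36 were called in the opposite direction. The 2-fold counts became 5868 higher in osythdf1b and 2642 higher in osythdf1c.

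Libraries within a line lay close together. Among 13768 genes with a mean of at least 10 CPM (counts scaled to the library total), the median SD of log2 CPM, scaled with TMM factors, between the 3 libraries was 0.0505 in osythdf1b and 0.0773 in osythdf1c. Over the same genes the median size of the log2 difference between the lines was 0.507. On the same TMM scale the libraries of the lines did not overlap for 20912 genes, 75.8% of those tested, and 10477 of these were higher in osythdf1b. Of the 8804 genes called at 2-fold, 8617 had no overlap. Replicate spread was wider in osythdf1c, where 268 of the 13768 genes differed by more than 1.5-fold between the highest and the lowest library, against 59 in osythdf1b. Replicate 2 of osythdf1c, the shallowest of the 6 libraries, was the farthest from the other libraries of its line for 44.6% of these genes. Without it, 20001 genes were called, and 4942 and 3821 genes passed 2-fold in the same order.

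Genes with a small difference could also be counted. The 95% interval of the fold change lay wholly within 1.5-fold either way for 7834 genes (28.4%), and wholly beyond 1.5-fold for 10345 genes (37.5%). For the remaining genes the interval held both a smaller and a larger difference.

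**Figure D1:**
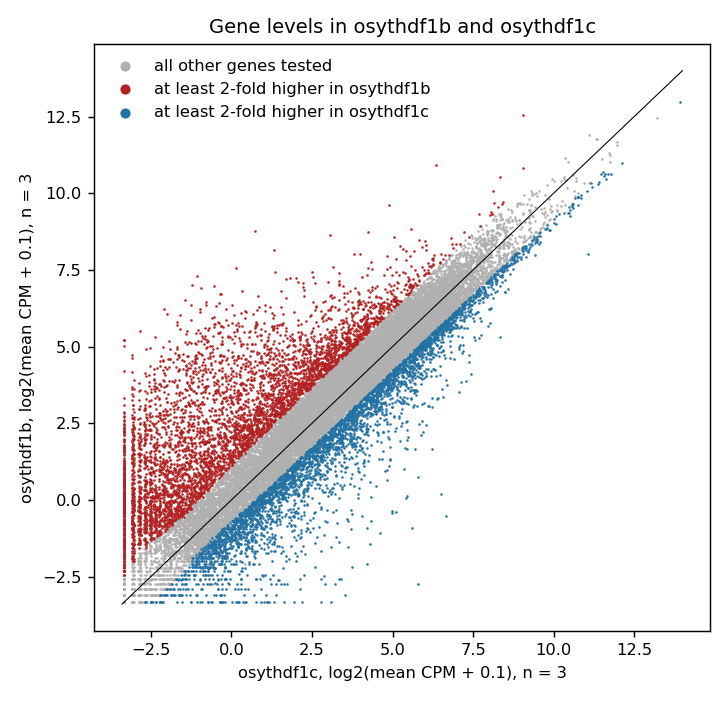
Mean level of each of the 27584 tested genes in osythdf1c (horizontal axis) and osythdf1b (vertical axis), both as log2(mean CPM + 0.1) over 3 libraries, with the line of equal levels in black. Red points are the 4884 genes at least 2-fold higher in osythdf1b and blue points the 3920 genes at least 2-fold higher in osythdf1c; the red cloud reaches to the left edge, where osythdf1c had almost no counts.

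The direction of the difference changed with how strongly a gene was expressed, in part depending on the scaling. Levels were compared between genes as FPKM, the authors' value scaled to gene length and depth, averaged over the 33 NIP libraries. Below 1 FPKM, 1644 of 5326 genes were at least 2-fold higher in osythdf1b and 964 were higher in osythdf1c. Between 1 and 10 FPKM the counts were 2443 and 1643 of 11743 genes. Between 10 and 100 FPKM they turned to 731 and 1108 of 9548 genes, and between 100 and 1000 FPKM to 63 and 187 of 922 genes. Among the 45 genes of at least 1000 FPKM, 3 were higher in osythdf1b and 18 in osythdf1c, with a median log2 fold change of -0.87. The turn at 10 to 100 FPKM rested on the scaling, since with library totals 1048 genes of that range were higher in osythdf1b and 619 in osythdf1c, and the median log2 fold change went from -0.11 to 0.1. Between 100 and 1000 FPKM the excess of osythdf1c likewise rested on the scaling: with library totals 99 genes were higher in osythdf1b and 73 in osythdf1c, and the median log2 fold change went from -0.22 to -0.01. Above 1000 FPKM the median kept its sign under library totals (-0.66), with 3 and 6 genes past 2-fold.

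Abundant transcripts took a larger part of the osythdf1c libraries. The 20 most counted features held 5.93% ± 0.0681 (SD, n = 3) of all counts in osythdf1b and 8.02% ± 0.12 (SD, n = 3) in osythdf1c, and the libraries of the lines did not overlap, the range being 5.88% to 6% against 7.9% to 8.14%. These 20 features were taken by their counts in the same libraries. Of them, 16 were called higher in osythdf1c and 3 higher in osythdf1b, against 37.5% and 37.2% of all genes tested. Under library totals 16 and 4 of the 20 were called in these directions. The most counted of all, a locus on chromosome 12, stood at 8030, 8180 and 8160 CPM in osythdf1b and at 15900, 15200 and 15000 CPM in osythdf1c. Its log2 fold change was -1.13 (SE 0.043), with an adjusted p of 1.1e-20 by edgeR's quasi-likelihood test and Benjamini-Hochberg adjustment. Conversely, the transcript that gained most CPM in osythdf1b, a locus on chromosome 5, stood at 5770, 6030 and 6030 CPM there and at 539, 499 and 538 CPM in osythdf1c. The log2 fold change of this locus was 3.29 (SE 0.075). Its level was also high in RNAi-OsYTHDC1A (7390 CPM) and DJ (5210 CPM), and it was near that of osythdf1c in NIP (386 CPM). A locus on chromosome 3 stood at 1940, 1940 and 1950 CPM in osythdf1b and at 83.4, 84.1 and 79.5 CPM in osythdf1c, a log2 fold change of 4.35 (SE 0.038). Here the line out of step with its wild type was osythdf1c, as NIP had 1350 CPM. The low level was not particular to osythdf1c. The other groups ran from 73.5 CPM in osythdf1a and 119 CPM in OE-OsYTHDF1A to 3500 CPM in osythdf3c. On chromosome 2 a locus went the other way, with 264, 263 and 260 CPM in osythdf1b, 2100, 2340 and 2020 CPM in osythdf1c and 1990 CPM in NIP, a log2 fold change of -3.25 (SE 0.05). Its level in the other groups ran from 39.8 CPM in osythdf1a and 68.6 CPM in osythdf3a to 3640 CPM in osythdf4c. These loci were picked for the size of their difference in CPM, after their values were seen.

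A number of genes were detected in 1 line and nearly absent from the other. A gene was taken as on in a line with at least 1 CPM in every library and as off with at most 3 counts in every library. By this definition 488 genes were on in osythdf1b and off in osythdf1c, and 48 were on in osythdf1c and off in osythdf1b. All of them passed the filter on low counts, which they did through the line that was on, and their difference follows from the definition. Most were weakly expressed. The 488 genes had a median of 2.94 CPM in osythdf1b, with quartiles of 1.83 and 5.33, and 49 of them reached 10 CPM. In 109 of them all 3 libraries of osythdf1c held 0 counts, which at this depth allows a low level and does not show absence. The 48 genes had a median of 2.51 CPM in osythdf1c, and 14 had 0 counts throughout osythdf1b. Of the 488 genes, 457 had a locus ID and thus a chromosome, and these made up between 1.32% and 2.36% of the tested loci on each of the chromosomes.

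The 488 genes on in osythdf1b had a recurring pattern across the other 13 groups. In osythdf3c 408 of them were on, in osythdf2a 392, in DJ 384, in RNAi-OsYTHDC1A 368 and in osythdf4c 275, and 207 genes (42.4%) were on in all 5 of these groups. The other 8 groups had between 4 (osythdf1a) and 77 (NIP) of them on. As osythdf2a had 2 libraries and every other group 3, fewer libraries had to pass for its states. In osythdf1a 376 were off, and in OE-OsYTHDF1A 367 were off, although osythdf1a shares its labelled background with DJ. In NIP 197 were off, 77 on, and the others in between. Only 18 of the 488 genes were on in none of the other 13 groups, and 4 were off in all of them. For the 48 genes on in osythdf1c no group stood out in this way: between 5 (OE-OsYTHDF1A) and 15 (osythdf2b) were on. Of the 504 genes detected in DJ and nearly absent from NIP by the same definition, 158 were on in osythdf1b and off in osythdf1c and 5 the reverse. For the 236 genes of the opposite pattern these numbers were 1 and 1.

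**Figure D2:**
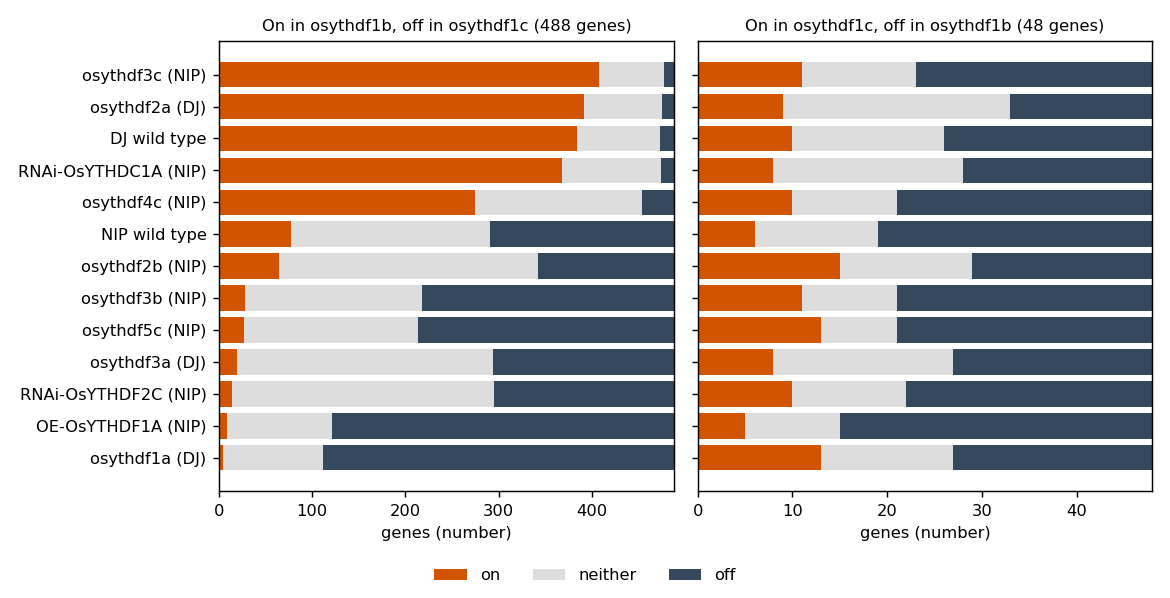
State of the 488 genes on in osythdf1b and off in osythdf1c (left) and of the 48 genes with the reverse state (right) in each of the other 13 groups, as the number of genes on (at least 1 CPM in every library), off (at most 3 counts in every library) or neither, with the labelled background in brackets. On the left, 5 groups have most of the genes on, from 275 in osythdf4c to 408 in osythdf3c, and the other 8 have at most 77 on.

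The same 5 groups lay near osythdf1b over the wider set of 2-fold differences. This set overlaps with the genes on in osythdf1b and off in osythdf1c, so it is not a separate observation. Each group was placed on a scale for each gene, on which its mean level (log2 of TMM-scaled CPM + 0.1) was 0 where it equalled osythdf1c and 1 where it equalled osythdf1b. For the 4884 genes higher in osythdf1b the median position was 1.04 in osythdf3c, 0.98 in DJ, 0.85 in osythdf2a and RNAi-OsYTHDC1A, and 0.82 in osythdf4c. The other 8 groups lay between -0.03 (osythdf1a) and 0.32 (osythdf2b), with NIP at 0.3. So NIP was nearer osythdf1c for most of these genes and nearer osythdf1b for 37.2% of them. For the 3920 genes higher in osythdf1c the same 5 groups were past the middle, from 0.77 in RNAi-OsYTHDC1A to 1.1 in osythdf3c. The other 8 groups lay between 0.17 (osythdf1a) and 0.49 (RNAi-OsYTHDF2C), with NIP at 0.41. The count of 5 rested on the processing: with CPM from library totals 9 groups lay past the middle, NIP among them at 0.52, and with a 4-fold minimum 11 did.

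**Figure D3:**
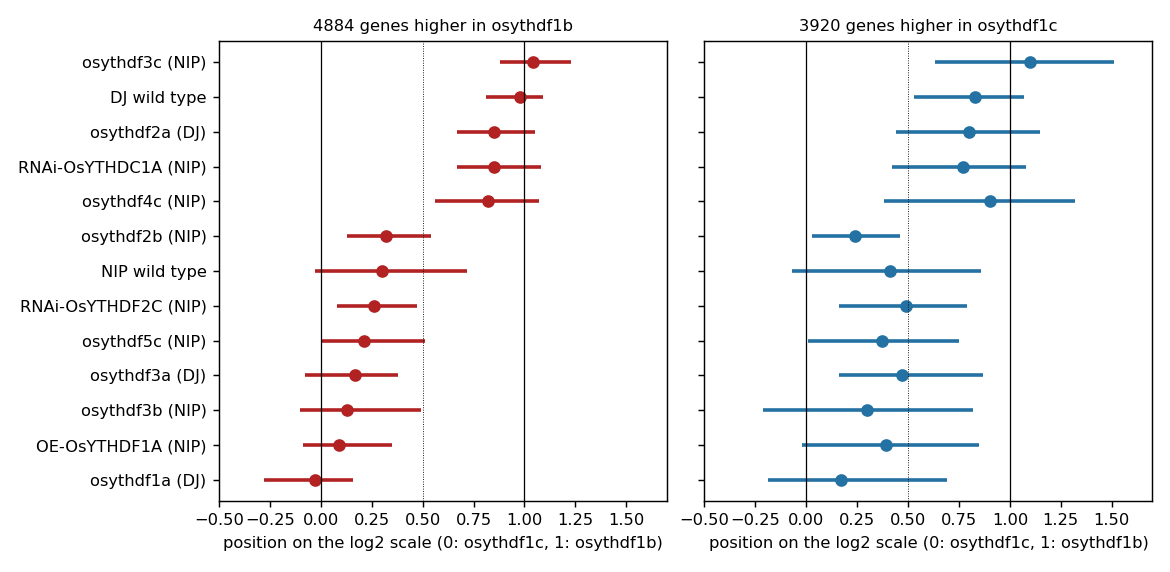
Median position (points) and interquartile range (bars) of each of the other 13 groups between osythdf1c (0) and osythdf1b (1) on the log2 scale, for the 4884 genes at least 2-fold higher in osythdf1b (left) and the 3920 genes at least 2-fold higher in osythdf1c (right). On the left, DJ (0.98) and osythdf3c (1.04) lie at osythdf1b and NIP (0.3) lies nearer to osythdf1c; on the right the same 5 groups have the highest medians (0.77 to 1.1), above the other 8 (0.17 to 0.49).

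Set among all 45 pairs of the 10 lines labelled NIP, the distance between osythdf1b and osythdf1c was large but not extreme. The pairs share libraries and are given as a description. By 2-fold calls, with 8804 genes, the pair ranked 11th from the widest, against a median of 7026 genes over the 45 pairs. The widest pair was osythdf3b and osythdf3c, with 11753 genes (42.6%), and the narrowest was osythdf1c and osythdf2b, with 2982 genes (10.8%). For osythdf1b the nearest line by 2-fold calls was RNAi-OsYTHDC1A, with 3661 genes (13.3%), followed by osythdf3c with 4122. Without a fold minimum this order was reversed, with 14856 genes called against osythdf3c and 16584 against RNAi-OsYTHDC1A. osythdf1c was the 8th of 9 lines in order of distance from osythdf1b. For osythdf1c the nearest lines by 2-fold calls were osythdf2b and RNAi-OsYTHDF2C (4140 genes), and osythdf1b was the 6th of 9 (7th without a fold minimum).

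**Figure D4:**
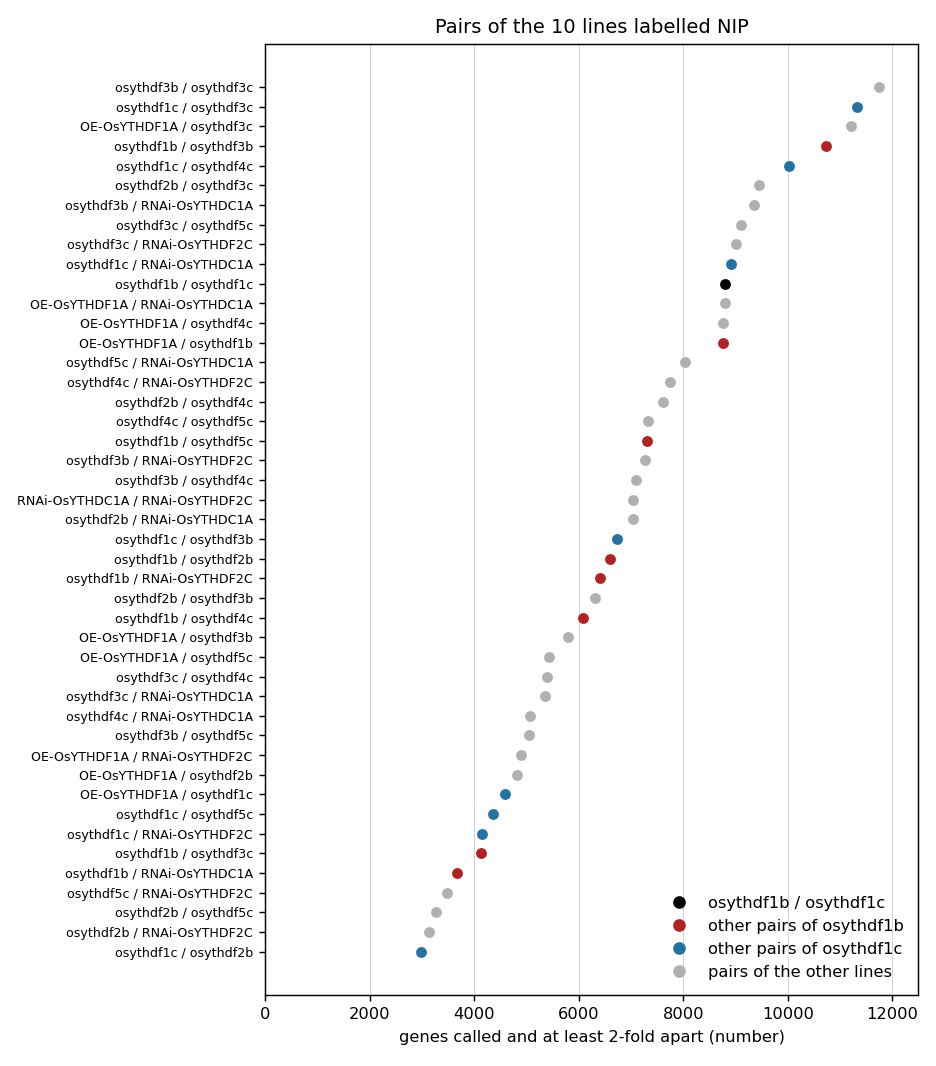
Number of genes called and at least 2-fold apart for each of the 45 pairs of the 10 lines labelled NIP, sorted from the narrowest pair at the bottom to the widest at the top. The black point is osythdf1b against osythdf1c (8804 genes), red points are other pairs of osythdf1b and blue points other pairs of osythdf1c; the lowest point is osythdf1c against osythdf2b (2982 genes).

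Few of the 2-fold differences set a line apart from all the rest of the series. A gene was called private to a line if its mean of log2(CPM + 0.1), with CPM scaled by TMM factors over all 44 libraries, was at least 2-fold above, or below, those of all 14 other groups. Of the 8804 genes, 83 (0.943%) were private to either line. In osythdf1b 23 genes lay above all other groups and 5 below, and in osythdf1c 46 lay above and 9 below. The genes below were sensitive to single libraries and to the offset: in osythdf1b they numbered 9 without its replicate 1 or without its replicate 3, in osythdf1c 15 without its replicate 2 and 14 without its replicate 3, and 1 in each line with an offset of 0.5 CPM. Every other group had between 12 (osythdf2b) and 268 (osythdf2a, with 2 libraries) genes above all the rest. The most highly expressed private gene of osythdf1b was a locus on chromosome 11. In CPM from library totals, as for all levels given, it stood at 166, 178 and 177 CPM there and at 5.47, 5.13 and 6.05 CPM in osythdf1c, and the highest mean elsewhere was 47.7 CPM in RNAi-OsYTHDC1A. A locus on chromosome 2 was nearly confined to osythdf1b among the 15 groups, at 33.9, 32 and 31.6 CPM, with 0 counts in all 3 libraries of osythdf1c and at most 0.551 CPM (osythdf3c) elsewhere. Against a floor of 3 counts over osythdf1c, it was at least 573-fold higher in osythdf1b. In osythdf1c the most highly expressed private gene was a locus on chromosome 4, with 84.4 CPM ± 8.2 against 9.84 CPM ± 0.48 in osythdf1b (SD, n = 3) and at most 37.3 CPM elsewhere, in osythdf1a. The private loci described were chosen by level after their values were seen.

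By the rule for named genes, which ranked loci by fitted log2 fold change among those without overlap and with at least 5 CPM in the higher line, LOC_Os04g11050 and LOC_Os04g09390 led the loci higher in osythdf1b. No role is given for these loci, as the files do not annotate them. LOC_Os04g11050, on chromosome 4, stood at 35.4, 38.9 and 36.9 CPM in osythdf1b and had 0 counts in every library of osythdf1c. In CPM from library totals it was at least 653-fold higher in osythdf1b, against a floor of 3 counts over osythdf1c. Its adjusted p was 9e-41 by edgeR's quasi-likelihood test, fitted with TMM factors, and Benjamini-Hochberg adjustment. Among the other groups it was as high in DJ (34.8 CPM) and RNAi-OsYTHDC1A (37.9 CPM) as in osythdf1b, lower in osythdf3c (17.6 CPM) and osythdf2a (7.47 CPM), and at most 1.28 CPM in the remaining 9, with 0.029 CPM in NIP. LOC_Os04g09390, also on chromosome 4, stood at 33.4, 40 and 37.3 CPM in osythdf1b and likewise had 0 counts throughout osythdf1c, at least 650-fold lower. The same 4 other groups held it, at 10.9 CPM (osythdf2a) to 21.2 CPM (RNAi-OsYTHDC1A), and osythdf3a had 3.04 CPM.

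The loci that led the other direction had a different pattern. LOC_Os10g30240, on chromosome 10, had 0 counts in every library of osythdf1b and stood at 9.2, 8.21 and 7.8 CPM in osythdf1c, at least 168-fold higher, with an adjusted p of 8.9e-23 by edgeR's quasi-likelihood test and Benjamini-Hochberg adjustment. Its highest level in the series was in osythdf2a (60.4 CPM), with 5.61 CPM in osythdf3a and at most 0.167 CPM in the other 11 groups, so it was found in 3 lines and in neither wild type above that level. LOC_Os09g09210, on chromosome 9, stood at 54.2, 56.8 and 54.6 CPM in osythdf1c, while the osythdf1b libraries held 2, 0 and 1 counts. The ratio of the lines was 1100, with a 95% counting interval of 377 to 5350. It was private to osythdf1c, as the highest mean in any other group was 0.131 CPM. Its fitted log2 fold change was -10.13 (SE 0.24) with all libraries, -10.96 without replicate 1 of osythdf1b and -9.61 without replicate 2.

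Only 1 locus could be paired with a gene name. OsCCC2 (LOC_Os01g19850, on chromosome 1), a cation-chloride cotransporter, a type of membrane protein that moves chloride together with potassium or sodium, stood at 2.45, 2.33 and 3.37 CPM in osythdf1b and at 0.46, 0.641 and 0.396 CPM in osythdf1c. The libraries of the lines did not overlap. Its log2 fold change was 2.24 (SE 0.29), with an adjusted p of 4.8e-10 by edgeR's quasi-likelihood test and Benjamini-Hochberg adjustment. In the other groups its mean ran from 0.433 CPM in NIP to 3.31 CPM in osythdf2a. The mean of osythdf1c (0.499 CPM ± 0.13, SD, n = 3) differed from NIP by less than the spread between its libraries, and osythdf1b lay above 12 of the 13 other groups.

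**Figure D5:**
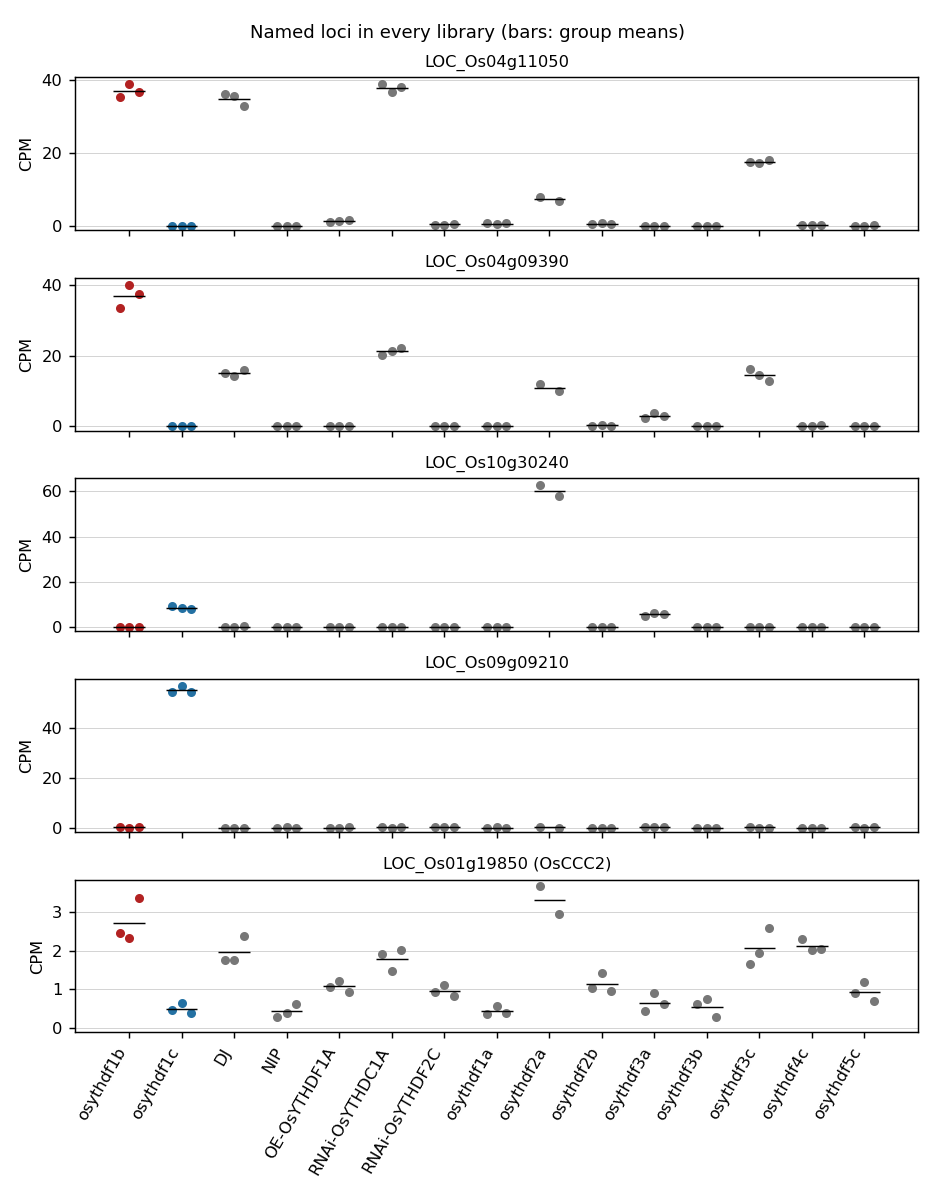
CPM of the 5 named loci in every library of the 15 groups, with osythdf1b in red, osythdf1c in blue, all other groups in grey and bars at the group means. The loci on chromosome 4 are present in osythdf1b and a few other groups, LOC_Os09g09210 has appreciable counts in osythdf1c and no other group, and the highest points of LOC_Os10g30240 are those of osythdf2a.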

How the data were processed

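Total RNA of rice seedlings was made into paired-end libraries, per the labels' protocols. HISAT2, featureCounts and the build IRGSP-1.0 are named in the submitters' processing notes; versions, settings and strand use: not given in the sources used here, so overlapping genes, antisense genes and near-identical copies may share reads. The authors deposited whole-number counts per feature, not normalized. They also deposited FPKM, which equal the counts scaled by the column total and a fixed length. A further 40 columns of either file match no sample and were left out.

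The test used edgeR 4.0.16 (R 4.3.3) on the counts: filterByExpr, TMM factors, robust dispersions, 1 coefficient per group over the 33 NIP libraries and the 2-sided quasi-likelihood test with Benjamini-Hochberg adjustment over 27584 genes. The biological coefficient of variation was 4.6%. CPM given as levels, and the on and off states, use the library total, whereas overlap between libraries, replicate SD, positions and private genes use CPM scaled by TMM factors. SEs are the absolute log2 fold change over the root of the F statistic. The counting interval of the ratio for LOC_Os09g09210 and the floors cover counting error only. Replicates differed beyond counting noise (chi-square per degree of freedom 1.68 to 4.12), so none were merged. Alternatives used DESeq2 1.42.0 and limma 3.58.1, other scalings, filters and thresholds, thinning and left-out libraries. The procedure was tested on simulated data.

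Named genes were the loci with the largest fitted log2 fold change each way, among called loci whose libraries did not overlap and whose higher line had a mean of 5 CPM or more. The first 2 each way are printed, plus the 1 ID that the reference gene table names. Gene lists could not be matched to the locus IDs and were not run. The comparison, lists and rules were chosen with earlier results of these data known.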

Additional observations from a re-analysis of the deposited data

How the results depend on the processing

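Weak genes were called less often, at 56.3% below 1 FPKM against 92.2% between 100 and 1000 FPKM. Whether depth limits these calls was not tested. No named locus changed sign. The balance of directions did turn with the scaling: 10267 calls higher in osythdf1b and 10349 in osythdf1c became 12710 and 8043 with library totals, and the 2-fold excess of osythdf1c between 10 and 1000 FPKM became an excess of osythdf1b. The number of calls ran from 19514 (all libraries thinned to equal depth, an alternative chosen after seeing the data) to 20936 (no filter on low counts), and leaving out 1 library gave 19912 to 20105. A 2-fold minimum left 8804. With limma on log2(FPKM + 1), 1348 genes were at least 2-fold higher in osythdf1c, and on log2(FPKM + 0.1) 2397, against 3920; the pseudocount lowers the fold change of weak genes, and these FPKM are scaled by library totals. Under DESeq2 19773 of the 20616 calls kept their direction and significance.

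With the replicate block, 20540 genes were called, 10238 higher in osythdf1b and 10302 higher in osythdf1c, and 20494 of the 20616 calls were shared. Same-numbered libraries of the lines deviated together with correlations of -0.03, 0.13 and 0.24, so the numbers were not taken to pair samples. Each number correlated best with its own in osythdf1c replicates 2 and 3 and not in replicate 1. The rank of the pair among the 45 line pairs by 2-fold calls went from 11 to 14 with library totals or DESeq2 size factors.

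Genes on in osythdf1b and off in osythdf1c numbered 765 with on at 0.5 CPM, 300 at 2 CPM, 109 with off at 0 counts and 1119 with off at up to 10 counts, against 488. For the reverse state these were 94, 26, 14 and 164, against 48. Leaving out 1 library gave 511 to 572 and 50 to 56, but it can only keep or raise these counts, since every library has to pass. Private genes at 4-fold numbered 9 above and 0 below in osythdf1b and 14 above and 0 below in osythdf1c. With library totals, an alternative chosen after seeing the data, they numbered 24 and 4 in osythdf1b and 43 and 9 in osythdf1c, against 23 and 5, and 46 and 9. With an offset of 0.5 CPM the genes below were 1 in each line. Leaving out 1 library gave 23 to 28 above and 5 to 9 below in osythdf1b, with 9 below without replicate 1 or 3 of osythdf1b, and 43 to 49 above and 9 to 15 below in osythdf1c, with 15 without its replicate 2 and 14 without its replicate 3. Groups past the middle for genes higher in osythdf1c were 9 with library totals and 11 at 4-fold, against 5; the cause was not tested. The 5 named loci kept direction and significance under every alternative run.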

Other observations

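Differences were found along every chromosome, with some local clustering. By locus order, the share of tested loci that were called ran from 72.1% on chromosome 11 to 79.3% on chromosome 3. Over 514 windows of 50 neighbouring tested loci, the share called at 2-fold had a median of 32% and ran from 14% to 52%. The locus next to one that was higher in osythdf1b by 2-fold was also higher in osythdf1b in 23.3% of 4646 cases, against 17.9% of all next loci. For osythdf1c the shares were 20.8% of 3667 cases and 14.1%.

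A few runs of adjacent loci moved together. There were 6 runs of at least 6 loci higher in osythdf1b and 4 runs higher in osythdf1c. The longest, 11 loci on chromosome 10, had log2 fold changes from 1.56 to 8.74 and a median mean level of 6.07 CPM in osythdf1b against 0.443 CPM in osythdf1c. A run of 8 loci on chromosome 2 went the other way, with a median of 1.35 CPM in osythdf1b and 10.9 CPM in osythdf1c. LOC_Os04g11050 lies in a run of 7 loci on chromosome 4, with a median of 18.3 CPM in osythdf1b and 0.0718 CPM in osythdf1c. The median of that run was 20.5 CPM in DJ, 15.1 CPM in osythdf3c and 0.029 CPM in NIP. DJ and NIP lay close together in the longer runs. Their medians were 2.3 and 2.58 CPM in the run on chromosome 10, where osythdf3c had 23.4 CPM. In the run on chromosome 2 they were 2.84 and 1.78 CPM. Such runs can hold near-identical copies, whose reads the counting may have split. These runs were picked after their values were seen.

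By transcript length, in 4 equal classes from the shortest to the longest, 66.7%, 75.6%, 78.8% and 77.8% of genes were called, while the median log2 fold change stayed between -0.03 and 0.03. At 2-fold, 1333 genes of the shortest class were higher in osythdf1b and 1155 in osythdf1c, against 1136 and 695 in the longest. Of the 1610 tested features without a locus ID, 59.4% were called, and of the 25974 loci 75.7%.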
